A study of Mus musculus with 7 samples.

Results

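The genes described here encode the proteins of the cytosolic ribosome. They were chosen by name alone, as entries of the deposited table whose symbol is Rpl or Rps followed by a number and at most a short suffix, together with Rpsa, Rplp0, Rplp1 and Rplp2. The rule found 85 members among 24908 symbols, 52 of the large subunit and 33 of the small subunit. Of these, 82 reached 1 FPKM in at least 2 libraries and were tested among 11735 genes, 49 from the large and 33 from the small subunit. The members that were not tested were Rpl10l, Rpl39l and Rpl3l, paralogs named after Rpl10, Rpl39 and Rpl3. Rpl10l and Rpl39l were listed at 0 in all 7 libraries, and Rpl3l did not exceed 0.308 FPKM.

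Poly-A RNA was sequenced from mouse intestinal mesenchyme sorted for low Pdgfra and for CD81, a stromal population known as trophocytes that lies below the crypts. The 7 libraries were 3 wildtype controls, 2 libraries taken at day 4 and 2 taken at day 6 after loss of Apc from the epithelium. The knockout mice carried the alleles Apc flox/flox and Villin-CreERT2. The study asks how the stroma responds while the neighbouring epithelium is transformed by WNT signalling. Villin drives the recombinase in epithelial cells, so the sorted cells are the neighbours of the mutant cells and are not themselves the target of the deletion. Strain, age, the dose of the inducing agent, and whether controls carried the floxed alleles or received that agent are not given in the sources used here. Nothing says that libraries came from separate animals, so a p-value here reflects the spread of these 7 libraries, which may be technical.

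The column names add a second grouping. The prefix 4d marks both libraries of day 4 knockouts and 1 control, called the day 4 harvest set here. The day 6 harvest set is made up of the day 6 knockouts with the other 2 controls. One day 6 knockout column, replicate 2, carries no day, and its place in the day 6 set was assumed. What a day means for a wildtype control is not stated. For the knockout libraries, harvest set and day after deletion cannot be told apart.

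A cytosolic ribosome holds one copy of nearly every one of these proteins, so cells usually make them in matched amounts. The large subunit carries the peptidyl transferase centre, the exit tunnel and the acidic stalk of Rplp0, Rplp1 and Rplp2, and the small subunit reads the messenger RNA. Ribosomal protein messengers begin with a run of pyrimidines, the terminal oligopyrimidine or TOP tract, through which mTOR and Larp1 control their translation. The genome holds a large number of processed copies of these short, abundant messengers, and part of a sequencing read may match a copy as well as the parent gene.

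Levels are given as FPKM (fragments per kilobase of transcript, scaled by library size) as deposited by the authors. They are per length, so levels of different genes can be set side by side. For members with near copies such a comparison is limited, because reads may have been listed under a copy. The table holds no counts, so the depth of the libraries is unknown. Columns summed to between 352445 and 429805 FPKM. The sorted cells expressed their defining markers, with Cd81 between 32.4 and 169 FPKM and Grem1 between 101 and 501 FPKM. Day 4 knockout replicate 2 had the lowest Cd81, the lowest Grem1 and the lowest summed level of the 7 myeloid markers, 30 FPKM against 357 to 773 FPKM in the other libraries. Day 4 knockout replicate 1 had the highest summed level of the 7 B and plasma cell markers, 3045 FPKM against 315 to 787 FPKM elsewhere. The 10 epithelial markers summed to 1.69 to 23.8 FPKM.

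Together the members made up between 1.48% and 2.27% of the FPKM sum of a library. The 4 libraries of the day 6 set lay between 1.48% and 1.71%, and the 3 of the day 4 set between 1.83% and 2.27%, with no overlap. The same order was seen in the median level of the tested members. It was 43.9 to 54 FPKM in the day 6 set, against 75 to 94.8 FPKM for the day 4 set, while the median of all genes tested was between 7.15 and 8.63 FPKM in every library. The day 4 set control, at 75.4 FPKM, stood with the day 4 knockouts and apart from the other controls.

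Rpl41, which encodes a very short basic peptide of the large subunit, had the highest level of all members. In the day 6 set it measured 863 and 839 FPKM in controls and 620 and 689 FPKM after knockout. In the day 4 set it measured 324 FPKM in the control and 339 and 191 FPKM after knockout. Every day 6 set library was therefore above every day 4 set library, whatever the genotype. Others with a high mean level over 7 libraries were Rps29 (289 FPKM), Rps3a1 (258 FPKM), Rpl4 (252 FPKM), Rpl13 (245 FPKM), Rplp0 (191 FPKM) and Rpl7 (186 FPKM). Rpl4 lines the exit tunnel and Rplp0 is the base of the stalk. These proteins are built into the ribosome in equal numbers, but the listed levels spanned a wide range, down to a mean of 1.53 FPKM for Rps15a and 0.922 FPKM for Rpl26. Rps15a-ps4, named as a pseudogene of Rps15a, had its own entry at 1.64 to 20.4 FPKM. Whether its reads came from Rps15a was not tested.

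Paralogs were not always the minor form. Rpl22l1 averaged 25.4 FPKM over the 7 libraries and its parent Rpl22 only 6.9 FPKM. Rps27l, a paralog of Rps27 known as a p53 target, averaged 91.7 FPKM, above the 30.8 FPKM of Rps27. That order depended on Rps27rt, a retrogene of Rps27 with its own entry. In the day 4 set Rps27 and Rps27rt summed to 120 to 144 FPKM, above Rps27l at 38.4 to 46.5 FPKM. In the day 6 set they summed to 15 to 112 FPKM, below Rps27l at 114 to 156 FPKM. The other pairs had the parent on top. Rpl7l1 averaged 21.8 FPKM against 186 FPKM for Rpl7, and Rpl32l 1.53 FPKM against 140 FPKM for Rpl32. Rps4l averaged 17.6 FPKM, while Rps4x, the X-linked gene, averaged 110 FPKM.

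Of the members with a mean of at least 10 FPKM, the steadiest were Rps3a1, Rpl7, Rpl9 and Rps3, with standard deviations (SD) of 0.09, 0.11, 0.12 and 0.12 over the 7 libraries on the log2(FPKM + 1) scale. Rps3a1, a protein of the small-subunit platform, measured 263, 261 and 262 FPKM in the controls, 277 and 234 FPKM at day 4, and 268 and 240 FPKM at day 6. Neither genotype nor set separated these values. The least steady were Rps27, Rps21, Rps12 and Rplp2, with SDs of 1.2, 1.1, 0.97 and 0.93.

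At day 4 after epithelial Apc deletion, the median log2 change of the members against all 3 controls was 0.47, and 59 of 82 changes were positive. The median over all genes tested was -0.06. No member passed the threshold of an adjusted p of 0.05 in limma (two-sided, Benjamini-Hochberg over all genes tested), while 1.02% of all genes tested did. At an unadjusted p under 0.05, limma counted 27 members, or 32.9%, against 18.6% of all genes. The median was 0.53 for the large and 0.43 for the small subunit.

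The largest positive day 4 changes were those of Rps27, Rpl37, Rps12 and Rpl26. The change of Rps27 is that of its own row. Summed with its retrogene entry Rps27rt, Rps27 held 144 and 120 FPKM at day 4. That sum was 134 FPKM in the day 4 set control and 112 and 15 FPKM in the day 6 set controls. Rpl37, a zinc-binding protein of the large subunit, measured 13.8 and 10.9 FPKM at day 4, beside 2.38, 1.68 and 13 FPKM in the controls. The high control was the one from the day 4 set, and the groups overlapped. Its log2 change was 1.4 ± 0.62 (standard error, SE; limma, adjusted p = 0.284). Rps12, a protein of the small-subunit beak, changed by 1.31 ± 0.5 with the same arrangement of libraries (limma, adjusted p = 0.225). The largest negative changes were those of Rps21 (-1.45), Rpl41 (-1.28), Rps27l (-1.15) and Rpl32l (-1.12), with adjusted p in limma from 0.204 to 0.263. Rpl32l met the filter for testing through day 6 set libraries alone. For each gene at this negative end, the day 4 set control again lay beside the day 4 knockouts.

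This result rested on 1 library. Without the day 4 set control, limma called 22 members at day 4, 18 higher and 4 lower, while 4.05% of all genes tested passed, and the median was 0.66. With the harvest set as a term in the fit, so that each knockout day was compared with the controls of its own set, the day 4 median fell to 0.12 and 52 of 82 changes were positive. No member passed, against 0.0426% of all genes tested, and 1 member had an unadjusted p under 0.05 in limma. The own-set comparison at day 4 has a single control, which is assumed to vary like the other libraries. Its median was -0.02 without the first day 4 knockout and 0.25 without the second, so its direction depended on 1 library.

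**Figure D1:**
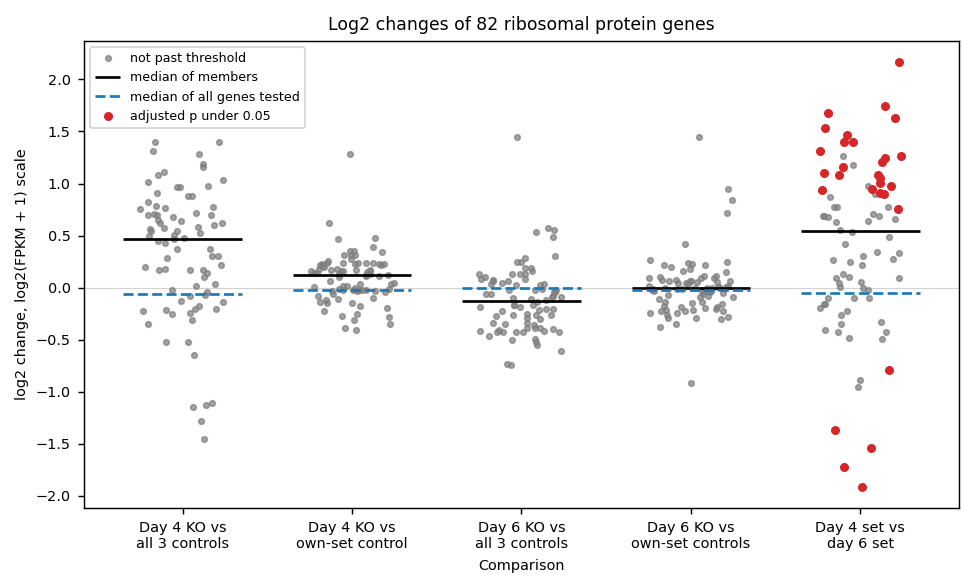
Log2 changes of the 82 tested ribosomal protein genes in 5 comparisons, on the log2(FPKM + 1) scale, with 1 point per gene, the members' median as a black line and the median of all genes tested as a dashed line. The members' median at day 4 stood at 0.47 against all controls and at 0.12 against the own-set control, and only the comparison of harvest sets, at the right, has points past the threshold.

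Within the day 4 set, the members with the largest positive changes were Rpl26 (1.28), Rps27 (0.62), Rpsa (0.48) and Rps2 (0.46). Summed with Rps27rt, Rps27 held 134 FPKM in the control of that set and 144 and 120 FPKM in its knockouts, so the control lay between them. Rpsa, also known as the laminin receptor, measured 68.9 FPKM in the day 4 set control and 96.3 and 96.6 FPKM in the day 4 knockouts. The knockouts were above their own control, but the day 6 set controls held 99.6 and 90.4 FPKM, so the pooled groups overlapped. The adjusted p of Rpsa in limma was 0.695 within the set. The negative end was Rpl37a (-0.40), Rps29 (-0.39), Rpl41 (-0.35) and Rpl22 (-0.31), each with an adjusted p above that of Rpsa.

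At day 6, the members' median log2 change was -0.12 against all controls and -0.01 against the day 6 set controls. The median of all genes was -0.01 against all controls, and -0.02 with the set term. In the pooled fit 27 of 82 changes were positive, and with the set term 37 were. No member passed in limma in either fit. In the pooled fit 0.0426% of all genes passed, and with the set term 0.017% did. At an unadjusted p under 0.05, limma counted 2 members in the pooled fit and 4 with the set term. The day 4 and day 6 comparisons with pooled controls share the 3 controls, so their changes are not independent.

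The 2 members with an unadjusted p under 0.05 at day 6 were Rpl26 and Rpl36a. Rpl36a, a large-subunit protein near the tRNA exit site, measured 17.7 and 17.1 FPKM at day 6, 21.6 and 18.3 FPKM at day 4, and 12.1, 8.55 and 15.3 FPKM in the controls. All 4 knockout libraries were above all 3 controls. Its average change over both days was 0.63 ± 0.19 on the log2 scale (limma, adjusted p = 0.212), and 0.54 ± 0.17 with the set term (limma, adjusted p = 0.275). The negative end at day 6 was Rpl21 (-0.75), Rpl37 (-0.73), Rpl28 (-0.61) and Rpl35 (-0.55), members for which the day 4 set control was the highest of the 3 controls. Within the day 6 set, Rpl22l1 changed by 0.84 ± 0.35 and Rpl32l by -0.92 ± 0.34, neither past the threshold (limma, adjusted p = 0.6 and 0.569).

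Averaged over both knockout days, the members' median was 0.13 against pooled controls and 0.03 with the set term. No member passed in limma, against 0.162% of all genes in the pooled fit and 0.222% with the set term, and 2 members had an unadjusted p under 0.05 in each. The member closest to the threshold was Rpl26, which encodes a protein at the tunnel exit. It was listed at 0.000169, 0.000294 and 0.000101 FPKM in the controls. After knockout it held 2.06 and 0.94 FPKM at day 4 and 1.76 and 1.69 FPKM at day 6. The groups did not overlap, but all of these values are low for a ribosomal protein gene. With controls this close to 0, the log2 change depends on the pseudocount and no fold is given. Rpl26 met the filter for testing through knockout libraries alone. Its p-values and calls thus come from a gene admitted by the group where it is high, and are not support for a genotype difference. The adjusted p of Rpl26 in limma was 0.0547 at day 4, 0.17 at day 6 and 0.056 over both days. With the set term it was 0.37, 0.267 and 0.103. It was past the threshold at day 4 with a pseudocount of 0.1 FPKM (limma, adjusted p = 0.0457), where 1.01% of all genes passed, and as the single member called for genotype when harvest set and genotype were the only terms (limma, adjusted p = 0.0494), where 0.281% of all genes passed.

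The knockout days were also compared with each other. The median of day 6 minus day 4 was -0.55 on the log2 scale over the members and 0.05 over all genes tested, with 23 positive and 59 negative changes. No member passed in limma, and 0% of all genes did. At an unadjusted p under 0.05, limma counted 37 members, or 45.1%, against 11.5% of all genes. The negative end was Rpl37 (-2.13), Rps12 (-1.78), Rpl21 (-1.72) and Rpl28 (-1.65), and the positive end was Rps21 (2.02), Rplp2 (1.59), Rps27l (1.43) and Rpl41 (1.36). Without the day 4 set control in the estimate of the spread, 7 members were called, against 0.713% of all genes tested, and with the 4 knockout libraries alone 5 were, against 0.52%. As the difference between the 2 own-set changes, the median was -0.11, and no member had an unadjusted p under 0.05 in limma.

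The harvest sets themselves were then compared, a comparison added after the data had been seen. The libraries of the day 4 set, control included, differed from those of the day 6 set in a large share of the members. With harvest set and genotype as terms, limma called 24 members higher in the day 4 set and 5 lower, so 29.3% and 6.1% of the 82, against 0.622% and 1.41% of all genes tested. All 3 day 4 set libraries were above all 4 day 6 set libraries for 41 members, or 50%, against 3.78% of all genes. They were below for 12 members, or 14.6%, against 9.65% of all genes. In the other 29 members the sets overlapped. The median difference was 0.54 over the members and -0.05 over all genes. Both subunits took part, with 15 higher and 2 lower of 49 in the large subunit, and 9 higher and 3 lower of 33 in the small.

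The count of 29 depended on the libraries included. It fell to 7, against 0.713% of all genes, when the day 4 set control was left out, where the set difference is that between the knockout days. Leaving out replicate 1 or 2 of the day 6 knockouts gave 12 or 17, against 0.865% and 1.08% of all genes. Leaving out the first day 4 knockout gave 16, against 1.14%, and leaving out the second day 6 control gave 19, against 1.35%. With no filter on low values, limma called 6 members, against 0.241% of the 24908 genes then tested. Rpl37, Rpl23a, Rpl28, Rplp2 and Rps27l were among them. The other 23 had an adjusted p from 0.0571 to 0.225 in limma, which includes Rps12, Rpl21, Rps25, Rpl11, Rpl10, Rps19, Rps27a, Rps21 and Rpl41, described below.

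The day 4 set control was also set against the day 6 set controls. With 1 library in one arm, the spread of this comparison came in large part from the knockout replicates, and the single control was assumed to vary like them. On that assumption limma called 2 members higher in the day 4 set control, Rpl37 and Rpl23a, and 1 lower, Rplp2, against 0.341% of all genes. The members' median difference among the controls was 0.48, a value that rests on a single day 4 control.

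**Figure D2:**
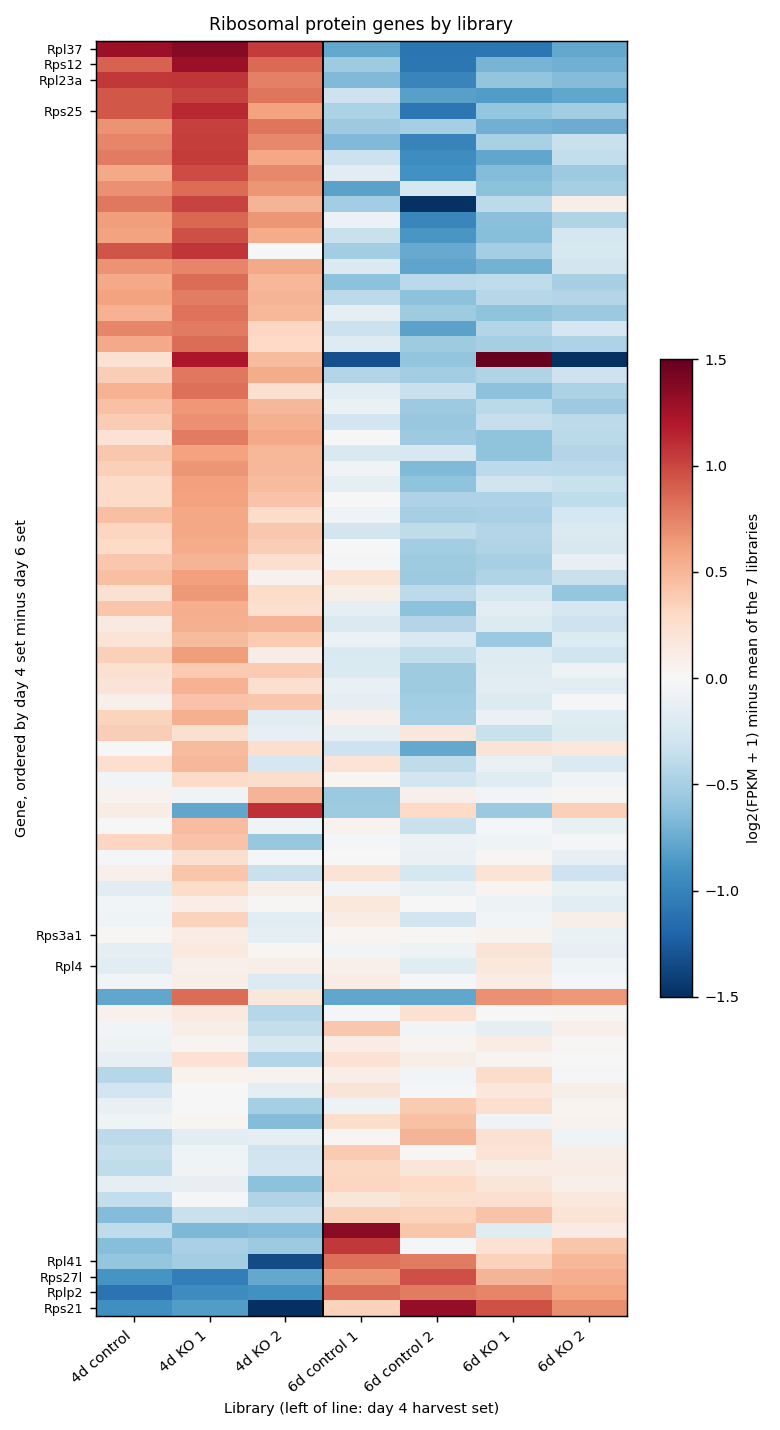
Level of each of the 82 tested ribosomal protein genes in the 7 libraries, as log2(FPKM + 1) minus the gene's mean over the libraries, with genes ordered by the difference between sets with the black line parting the sets and with names given for the 10 members whose FPKM is plotted by library. Red is above and blue below the gene's mean, and the 4d control column has the colours of the 4d knockout columns, not those of the 6d controls.

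Rpl37 had the largest positive set difference, 2.17 ± 0.17 (SE, limma, adjusted p = 0.000733). Its mean was 12.5 FPKM in the day 4 set and 2.03 FPKM in the day 6 set, a ratio of 6.17. Rps12 followed with 1.74 ± 0.18. It measured 41.7, 55.5 and 40.5 FPKM in the day 4 set and 15, 9.93, 13.2 and 13 FPKM in the day 6 set. No day 6 set library reached the lowest of the day 4 set.

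Rpl23a, which sits at the tunnel exit and contacts the signal recognition particle, measured 128 FPKM in the control of the day 4 set and 129 and 104 FPKM in its knockouts. The controls of the day 6 set held 38.2 and 30.2 FPKM and its knockouts 40.1 and 38.4 FPKM. Controls and knockouts of a set were side by side, and the sets were far apart, at a ratio of 3.27. Rpl21 (1.63), Rps25 (1.53) and Rpl28 (1.47) came next on the log2 scale. Rps25, a small-subunit protein used in initiation from internal ribosome entry sites, measured 91.5, 105 and 73.2 FPKM in the day 4 set and 34, 21.9, 31.6 and 33 FPKM in the day 6 set. For Rpl28 the day 4 set held 43.5 FPKM in the control and 55.7 and 47.5 FPKM in the knockouts, and the day 6 set 18, 18.7, 15.9 and 15.5 FPKM.

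Members with well-known roles outside or late in ribosome assembly were among those called higher. Rpl11, which with Rpl5 and the 5S RNA can bind Mdm2, differed by 1.4 ± 0.21 (limma, adjusted p = 0.014, and 0.165 with no filter on low values). Rpl5 itself had overlapping sets, at 25.1 to 30.5 FPKM and 25.3 to 32.1 FPKM. Rpl10, which joins the large subunit at its last step of maturation, differed by 1.31 ± 0.2, and Rps19, the gene most often mutated in Diamond-Blackfan anaemia, by 1.24 ± 0.22. With no filter on low values their adjusted p in limma was 0.176 and 0.225. Rps27a, made as a fusion with ubiquitin, differed by 1 ± 0.17. Rps6, the substrate of the S6 kinases, had 83.1 to 103 FPKM in the day 4 set, against 40.5 to 62.4 FPKM for the day 6 set and just missed the threshold (limma, adjusted p = 0.0509).

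The 5 members called lower in the day 4 set came from both subunits. Rplp2, an acidic stalk protein, measured 66.2 FPKM in the control of that set and 74.4 and 75.9 FPKM in its knockouts. The day 6 set held 261 and 247 FPKM in controls and 240 and 218 FPKM after knockout. The difference was -1.72 ± 0.14 on the log2 scale (limma, adjusted p = 0.000925). The other stalk genes were arranged otherwise. Rplp1 measured 143 to 193 FPKM in the day 4 set, against 81.1 to 130 FPKM for the day 6 set, and Rplp0 149 to 251 FPKM against 151 to 217 FPKM.

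Rps21, a small-subunit protein on the solvent side, had the most negative difference, -1.92 ± 0.27 (limma, adjusted p = 0.0118). It measured 18.5, 19.7 and 11.4 FPKM in the day 4 set and 46, 91.4, 70.3 and 58.8 FPKM in the day 6 set. Rps27l measured 42.8, 38.4 and 46.5 FPKM in the day 4 set and 127, 156, 114 and 117 FPKM in the day 6 set. Here too no library of one set lay within the range of the other. Rpl41, with the levels given above, differed by -1.37 on the log2 scale.

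**Figure D3:**
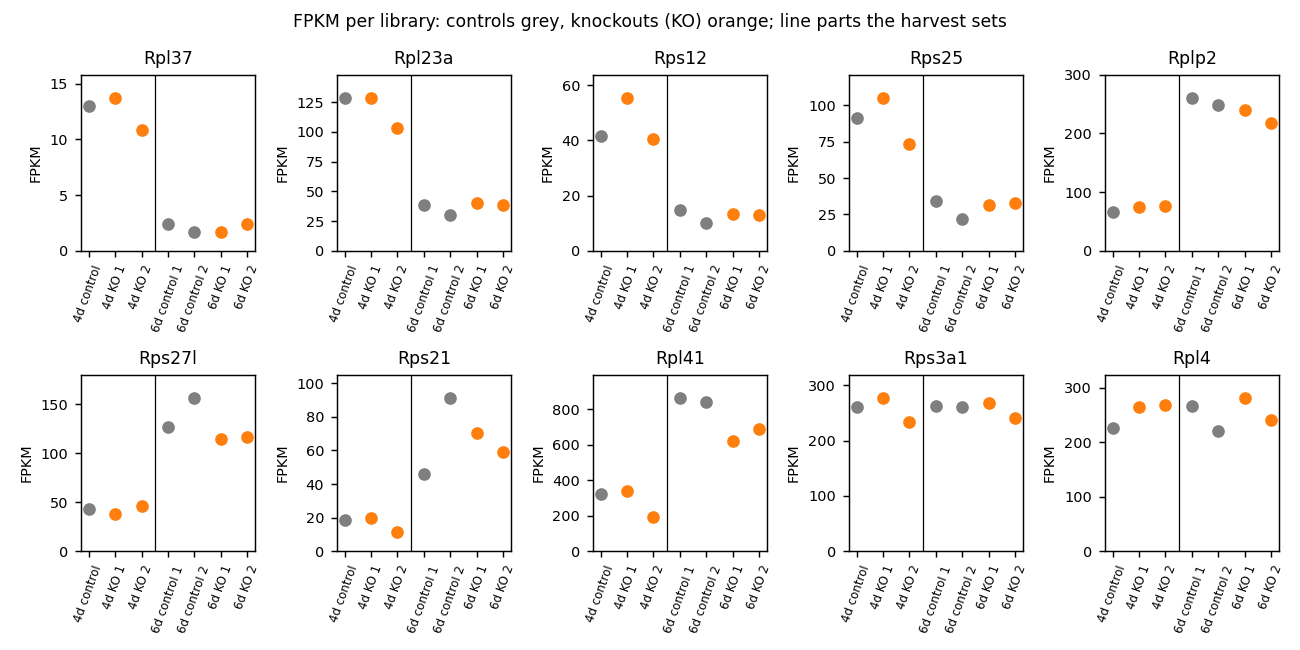
FPKM per library of 8 members that differed between harvest sets and of 2 steady members, Rps3a1 and Rpl4, with controls in grey and Apc knockouts in orange; the vertical axis starts at 0 and the line parts the sets. In the first 8 panels the grey points fall with the orange points of their own set, while Rps3a1 stays between 234 and 277 FPKM in all libraries.

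Members were closer than the average gene in 8 of the 9 pairs of libraries from one set, and farther apart in all 12 pairs from different sets. The exception was the pair of day 6 set controls, at a mean absolute log2 difference of 0.37 over the members and 0.32 over all genes tested. Between libraries of one set, the mean absolute log2 difference over the members was 0.2 to 0.37, and over all genes tested 0.28 to 0.4. Between libraries of different sets it was 0.67 to 1.03 over the members and 0.26 to 0.51 over all genes. Pearson's correlation of log2 levels between 2 libraries, across the 82 members, was 0.96 to 0.99 within a set and 0.82 to 0.88 between sets. Across all genes tested it was 0.94 to 0.97 within a set and 0.92 to 0.96 between sets. The members had medians of 43.9 to 94.8 FPKM, against 7.15 to 8.63 FPKM for all genes tested. Genes were not matched by level, so closeness within a set cannot be read as particular to the members. Genes are not independent replicates, and these values are given as a description.

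**Figure D4:**
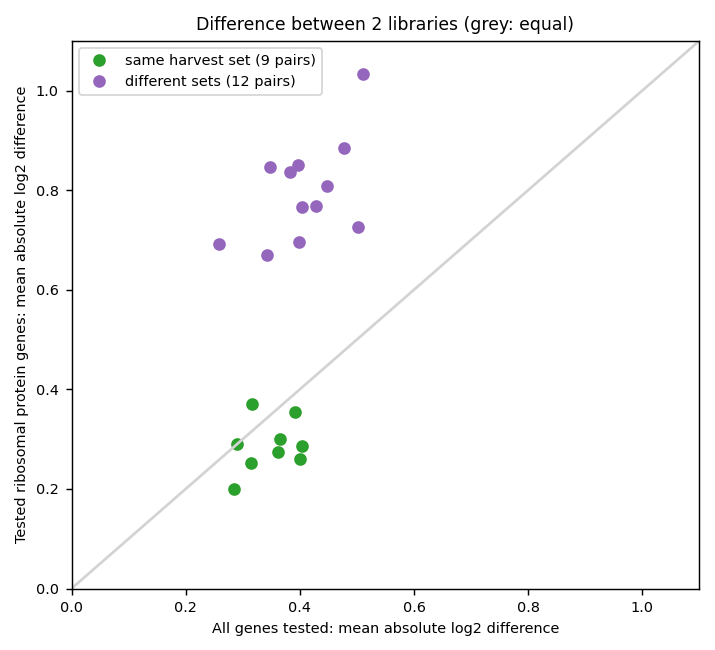
Each point is a pair of libraries, placed by the mean absolute difference in log2(FPKM + 1) over all genes tested (horizontal) and over the 82 ribosomal protein genes (vertical), with equality as the grey line. The 9 pairs from the same harvest set stay at or below 0.37 on the vertical axis and the 12 pairs from different sets start at 0.67.

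Rows named as a retrogene or pseudogene of a member were listed in the table as separate entries. The 9 such entries, for 8 members, were picked out by name after their values had been seen. They were not chosen by shared sequence and do not cover all near copies. Rpl7a, which has no such entry, shared more than 50% of its 31-base words with each of 13 other genes. The Rps27 row and that of its retrogene Rps27rt varied between replicates. Rps27rt was listed at 81.1 to 107 FPKM in 5 libraries, at 0.0561 FPKM in day 6 knockout replicate 1 and at 6.44e-06 FPKM in the second day 6 set control, where Rps27 held 15 FPKM. Rps27 measured 69.9 FPKM in that knockout replicate and 7.15 FPKM in the other. Those replicates were the highest and the lowest Rps27 values of the 7 libraries.

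Copies also differed between the sets. Rpl14-ps1 was listed at 110 to 131 FPKM in the day 6 set and at 26 to 33.1 FPKM in the day 4 set, the opposite order to Rpl14 itself, which had 36.4 to 49.6 FPKM in the day 6 set, against 73 to 84.4 FPKM for the day 4 set. Rpl31-ps12 stood at 67.8 to 94.5 FPKM in the day 6 set, against 6.71 to 13.5 FPKM for the day 4 set, while Rpl31 overlapped between sets. Rps15a-ps4 held 14.2 to 20.4 FPKM in the day 6 set, more than Rps15a, and 1.64 to 3.53 FPKM in the day 4 set. Rps19-ps3 was likewise lower in the day 4 set, and Rps15a-ps6 higher.

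Other copies moved with or against their parents at low level. Rpl37rt had 1.28 to 2.31 FPKM in the day 6 set, against 14.3 to 16.9 FPKM for the day 4 set, the same order as Rpl37. The entry RPLP2-PS1 had 2.86 to 5.31 FPKM in the day 6 set, against 16.9 to 20.6 FPKM for the day 4 set, opposite to Rplp2. When the named copies were added to their members, limma called 29 members between sets, 22 higher and 7 lower, against 2.03% of all genes tested. How the reads of members and copies were assigned is not given in the sources used here, and its part in the set difference was not tested.

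**Figure D5:**
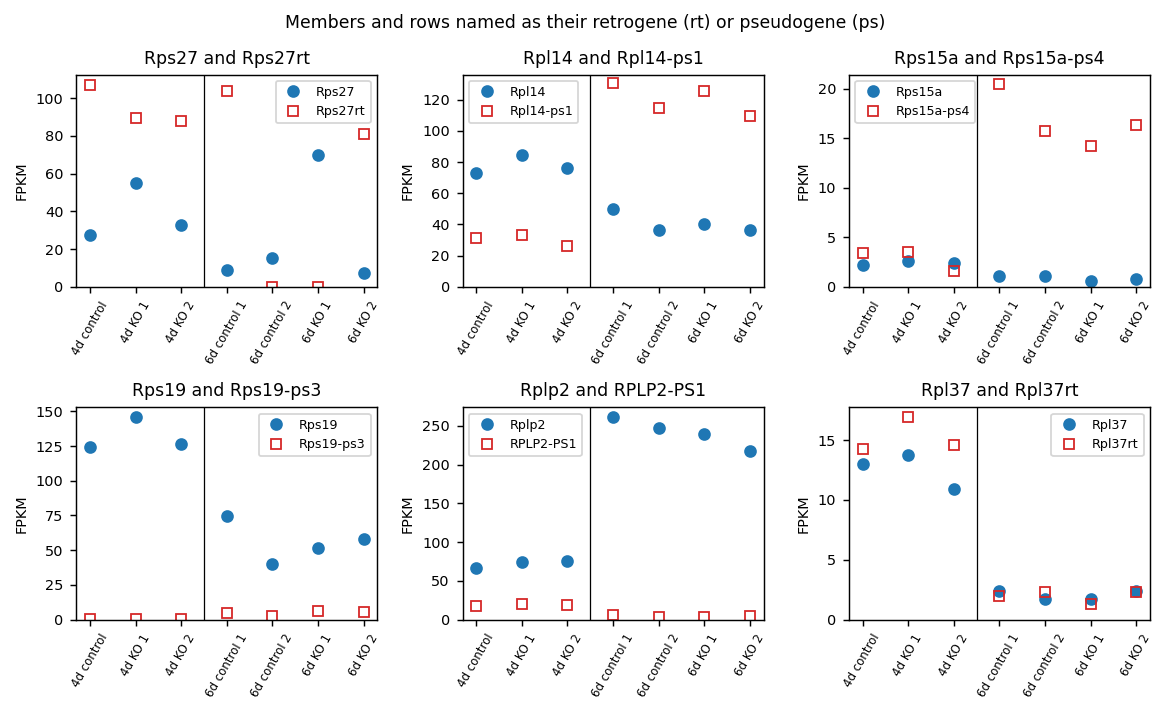
FPKM of 6 members (filled circles) and of the entries named as their retrogene (rt) or pseudogene (ps) copies (open squares) in the 7 libraries, with the line parting the harvest sets. Rps27 and Rps27rt exchange places in day 6 knockout replicate 1, Rpl14 and Rpl14-ps1 exchange order between sets, and Rpl37 and Rpl37rt are both higher in the day 4 set.

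Sequence sharing was measured on the GENCODE vM21 transcripts for the 80 tested members with a protein-coding transcript there. The median member had 47.3% of its 31-base words in no other gene, with a range from 1.27% for Rps27 to 100%. Of the members called with the largest set differences, Rpl23a had 16.8% and Rps12 16.2% of such words, but Rpl37 had 64.7%, Rps25 72.6%, Rplp2 61.9% and Rps27l 70.4%. Among the 16 members under 20%, the day 4 set was wholly above in 10 and wholly below in 1. Among the 22 members at 60% or more, it was wholly above in 9 and below in 4. Spearman's rank correlation of this share with the set difference was -0.16 across the 80 members, and with the mean level -0.08.

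The start sites of 64 members could be read from RefSeq promoters on GRCm38.p6, a build other than the mm9 named in the submitters' processing notes. Windows of 30 bases, from 10 before to 20 from the annotated start on, are shown for members higher in the day 4 set (Rpl37, Rps12, Rps25, Rpl28), lower in it (Rplp2, Rpl41) and steady (Rps3a1, Rps3), because the pyrimidine tract is the known shared feature of these messengers. Capitals mark the longest pyrimidine run in the window.
Rpl37, chr15:5116603-5116632, plus strand: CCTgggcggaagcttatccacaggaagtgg
Rps12, chr10:23787190-23787219, minus strand: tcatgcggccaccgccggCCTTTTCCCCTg
Rps25, chr9:44407704-44407733, plus strand: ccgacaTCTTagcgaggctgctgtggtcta
Rpl28, chr7:4792955-4792984, plus strand: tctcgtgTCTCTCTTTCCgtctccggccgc
Rplp2, chr7:141447641-141447670, plus strand: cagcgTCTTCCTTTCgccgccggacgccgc
Rpl41, chr10:128549149-128549178, minus strand: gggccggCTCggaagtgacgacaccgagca
Rps3a1, chr3:86142649-86142678, minus strand: gCCggaagggcgaaagagcaagggtcacgt
Rps3, chr7:99483690-99483719, minus strand: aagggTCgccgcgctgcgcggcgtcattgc
Long runs stood in members of both directions. Rpl28, higher in the day 4 set, had a run of 11, and Rplp2, lower in it, a run of 10, while Rpl37, with the largest difference, had a run of 3.

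A run of at least 7 pyrimidines between 10 bases before and 15 after the start was found in 50% of the 64 members and in 17.5% of 27025 genes with a promoter. A C at the start followed by 4 pyrimidines was found in 21.9% against 3.01%. The letters CCGGAA, which holds the GGAA core bound by ETS factors, occurred on either strand of the 300-base promoter in 54.7% against 16.7%, and AAGATGG, part of the YY1 motif, in 15.6% against 7.28%. TATAAA between 50 and 10 bases before the start was rare, at 1.56% against 2.89%. The 7-base pyrimidine run was present in 18 of 30 members with a promoter that were wholly higher in the day 4 set, and in 6 of 9 that were wholly lower. The C at the start followed by 4 pyrimidines was present in 8 of the 30 and in 5 of the 9. A match describes letters in these windows and not a bound site, and annotated starts may lie some bases from the true ones.

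Other genes of the translation machinery, from lists chosen with earlier results of these data known, were compared between the sets in the same fit. Of 78 mitochondrial ribosomal protein genes tested, 3 were called higher and 3 lower in the day 4 set, against 0.622% and 1.41% of all genes tested. An unadjusted p under 0.05 in limma was held by 20 of them, against 13.7% of all genes tested. Their median was 0.09. Those called higher were Mrpl42 (1.31), Mrps24 (0.80) and Mrpl51 (0.77), and those called lower Mrpl52, Mrpl33 (-1.75) and Mrpl14 (-1.07). Mrpl52 measured 15.7, 19.4 and 20.5 FPKM in the day 4 set and 85.2, 111, 69 and 69.2 FPKM in the day 6 set, a difference of -2.07 on the log2 scale. None of 30 initiation factors, 13 elongation and termination factors, 25 genes of mTOR and stress-kinase control, 9 genes of the Myc family, 15 cell cycle genes, 16 p53 targets or 20 immediate early and heat shock genes was called in limma. In that order, 6, 0, 1, 2, 0, 3 and 2 of them had an unadjusted p under 0.05, and the medians of the log2 differences were 0.04, 0.01, -0.05, -0.23, 0.0048, -0.07 and -0.06. Few of all genes were called in this fit, so the lack of a call in lists this small is not a result about these genes. Of 21 genes of RNA polymerase I and its factors, the shared polymerase subunits Polr2f and Polr2k were called lower, against 1.41% of all genes tested. Of 8 genes for other ribosomal fusion or ribosome-bound proteins, Fau, whose product is cut to a small-subunit protein, was called lower, against the same 1.41%. Fau measured 54.9, 62.9 and 52.1 FPKM in the day 4 set and 127, 95.2, 109 and 116 FPKM in the day 6 set.

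Ribosome assembly genes had a different arrangement. Of 67 tested, none was called in any of these comparisons in limma. At day 4, 1.02% of all genes tested were called against pooled controls and 0.0426% within the set. The unadjusted p at day 4 was under 0.05 for 16 assembly genes against pooled controls and 4 within the set, beside 18.6% and 7.69% of all genes tested. Their median log2 change at day 4 was 0.32 against pooled controls and 0.29 against the own-set control, with 61 of 67 positive in each. These medians became 0.15 and 0.16, with 55 and 50 positive, without day 4 knockout replicate 2, the library low in Cd81, Grem1 and myeloid markers. Without replicate 1 they were 0.47 and 0.42. At day 6 it was 0.16 and 0.2, with 50 and 53 positive. Between sets their median was 0.1. The medians of the ribosomal proteins in the own-set comparisons were 0.12 and -0.01.

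Summed marker levels were also compared between the sets. The 7 blood endothelium markers summed to 14.6 to 28.6 FPKM in the day 4 set, against 6.19 to 15.5 FPKM for the day 6 set. These ranges overlap. The 6 trophocyte markers summed to 562 and 478 FPKM in the day 4 knockouts, 851 FPKM in the day 4 set control and 864 to 1122 FPKM in the day 6 set. The control thus stood beside the day 6 set and apart from the knockouts of its own set. Cd34 and Wnt2b were called lower at day 4 against pooled controls in limma, where 1.02% of all genes tested were called in either direction. None of the 6 was called with the set term. Markers of myeloid cells, B and plasma cells, T cells, smooth muscle, telocytes, red cells and epithelium overlapped between sets, and the 5 glial and neuronal markers summed to 1.4 FPKM at most. Gapdh, a glycolytic enzyme often used for scaling, held 193 to 277 FPKM in the day 4 set, against 66.5 to 91.4 FPKM for the day 6 set. The part of cell makeup in the members' set difference was not tested, and in bulk RNA a changed share of cells and a changed level per cell cannot be told apart.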

How the data were processed

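The authors deposited FPKM values, 1 column per library, under upper-case gene symbols, with 25493 rows, of which the highest-mean row was kept for 293 repeated symbols. Per the submitters' processing notes, the tools were kallisto 0.46.1 and DESeq2 1.40.1 and the build mm9, with no role stated for each. How fragments were counted is not given in the sources used here. Symbols were matched to the reference for 24411 of 24908. Columns were assigned to groups by name, and 0 columns were left unused. The names of control columns do not show which numbered control each one is.

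Genes with at least 1 FPKM in 2 libraries were tested on log2(FPKM + 1) with limma 3.58.1 in R 4.3.3 (intensity trend, two-sided, Benjamini-Hochberg over all genes tested, threshold 0.05), with 1 mean per group and 4 residual degrees of freedom. Log2 changes of low genes are understated on this scale. No pair of libraries was near-identical. Relative depth within sets, from steps of values under 0.2 FPKM, was roughly 0.747 to 1.6. The code was tested on simulated data.

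The members, gene lists and naming rule were chosen with earlier results of these data known. The rule names members past the threshold, the 4 most positive and negative changes per comparison, the 8 of highest mean, paralogs with parents, Rpsa and the stalk genes, and the 4 most and least variable; some results for members it names are not reported here. The comparison of harvest sets, its alternatives, the sum with named copies and the fits on knockout libraries alone and on the 6 numbered libraries without a block were added after seeing the data. The alternatives changed the pseudocount, filter, scaling, set term, treatment of zeros and repeated symbols, and left out each library in turn. No values were dropped or imputed in the main fits.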

Additional observations from a re-analysis of the deposited data

Results flagged for a closer look

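In 2 members, Rpl28 and Rps15a, both day 4 knockout libraries lay above all 3 controls and both day 6 knockout libraries below all 3. This is 2 of the 82 tested members, and 0.409% of all 11735 genes tested had the same arrangement. For Rpl28 the change from day 4 to day 6 was -1.65 ± 0.39 on the log2(FPKM + 1) scale (limma, adjusted p = 0.271). With the harvest set as a term it was -0.45 ± 0.27 (limma, adjusted p = 0.999). Rps15a changed by -1.07 ± 0.27 (limma, adjusted p = 0.287), and by -0.43 ± 0.34 with the set term (limma, adjusted p = 0.999). The difference between the days did not pass the threshold for either gene. Both genes were also higher in the day 4 harvest set, control included. There Rps15a measured 2.19, 2.64 and 2.41 FPKM, while the day 6 set libraries lay between 0.583 and 1.05 FPKM. For Rps15a this order held on its own row only. Summed with its copy Rps15a-ps4, it held 5.62 FPKM in the day 4 set control and 6.18 and 4.04 FPKM in the day 4 knockouts. The lowest day 6 set library then held 14.8 FPKM. With that sum the day 4 knockouts were not above all 3 controls.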

How the results depend on the processing

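Members called at day 4 numbered 0, 1 with a pseudocount of 0.1 FPKM (Rpl26), and 0 to 22 when each library was left out, with 22 only without the day 4 set control. The day 4 median of 0.47 became 0.12 with the set term. Members called at day 6 stayed at 0 under every alternative run. Over both days they did too, except that Rpl26 was called with harvest set and genotype as the only terms, and the median over both days ranged from -0.04 to 0.27 when libraries were left out. Rpl26 met the filter for testing through knockout libraries alone. For day 6 against day 4, calls ranged from 0 to 7 when libraries were left out and were 5 with the knockout libraries alone, and the median of -0.55 became -0.11 with the set term. Between harvest sets, the 29 calls became 6 with no filter on low values, 3 for the day 4 set control against the other controls, and 7 to 28 when libraries were left out. The median of 0.54 became 0.72 with columns rescaled to one sum, which moved the median of all genes from -0.05 to 0.09. For the members followed one by one on their own rows, no called value reversed. Adding named copies did reverse the order of the sets for Rpl14 and Rps15a, both called higher in the day 4 set. Summed with Rpl14-ps1, Rpl14 held 102 to 117 FPKM there, below all day 6 set libraries (146 to 181 FPKM). Summed with Rps15a-ps4, Rps15a held 4.04 to 6.18 FPKM there, also below all day 6 set libraries (14.8 to 21.5 FPKM). The column names number the knockout libraries and the day 6 set controls 1 and 2, and the day 4 set control carries no number. For day 6 against day 4, with the replicate block over the knockout libraries, 0 members and 15 of all genes were called, against 5 and 61 without the block, and the median was -0.55. For the comparisons with wildtype, the replicate block over the 6 numbered libraries gave 18 members at day 4, against 22 without the block, and 0 at day 6 and over both days either way. These 6 are the libraries other than the day 4 set control, and without it 4.05% of all genes tested passed at day 4. The share of all genes with the block is not given here. The replicate differences of the knockout days correlated at -0.03 over all genes and 0.27 over the members, those of controls and day 4 knockouts at 0.19 and 0.20, and those of controls and day 6 knockouts at 0.14 and -0.32. The numbers were not taken as pairs, because these values were not all above 0.1. The unknown depth and the 1 to 3 libraries per arm limit the precision.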
